A study of Mus musculus with 23 samples.

Results

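The genes described here are 32 smooth muscle and fibroblast matrix genes, out of 55416 gene rows in the count tables. They comprise 12 smooth muscle genes (Acta2, Myh11, Cnn1, Cald1, Tagln, Synpo2, Des, Actg2, Mylk, Lmod1, Flna and Tpm2) and 20 fibroblast and matrix genes (Fn1, Pdpn, Bgn, Postn, Col1a1, Col1a2, Col3a1, Col4a1, Col4a2, Col5a1, Col6a1, Col6a2, Dcn, Lum, Sparc, Mgp, Fbn1, Vim, Pdgfra and Pdgfrb). They were chosen by name, and each symbol matched an Ensembl identifier of the count tables. RNA-seq was run on scraped proximal small intestine, 1 library per mouse. The mice were of the strain C57BL/6JRccHsd and all carry the label female. From day 21 of age the mice were fed for 3 weeks either GAL42, a diet in which galactose gave 16% and glucose 16% of energy (12 mice), or GLU42, in which glucose gave 32% (11 mice), and the diets did not differ otherwise. Tissue was taken on day 42.

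A scraping removes the mucosa, which is the epithelium with the connective tissue core beneath it, and leaves most of the muscle wall behind. Smooth muscle cells contract by sliding myosin along actin filaments, and the filaments are anchored to the membrane and to intermediate filaments. Fibroblasts lay down the collagens, proteoglycans and glycoproteins of the extracellular matrix, and strands of smooth muscle and sheets of fibroblasts also run inside the mucosa. The amount of these transcripts in a scraping therefore depends both on the cells present and on their expression, and in bulk tissue fewer cells of a type and less RNA per cell cannot be told apart.

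The libraries held 15382583 to 17174721 counts in genes. The 10 enterocyte markers summed to between 53366 and 80957 CPM (counts-per-million, taken on the TMM-scaled total of each library), so the labelled tissue showed its defining transcripts in every library. Several libraries stood apart. GAL42 replicate 12 is labelled female but held 225 counts of Y-linked genes, against at most 1 elsewhere, and 4 counts of Xist. GAL42 replicate 2 held 569 CPM of pancreatic acinar markers, against at most 7.23 CPM in any other library, and GLU42 replicate 1 held 44.9 CPM of adipocyte markers, against at most 9.20 CPM. GLU42 replicate 8 had the highest muscle values, described below.

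Muscle and matrix transcripts varied widely from mouse to mouse and varied together. Type I, III, IV and VI collagens varied in near unison across the 23 libraries, the contractile genes did so somewhat less tightly, and the levels of the muscle and the matrix genes were themselves correlated. The same 4 libraries, GLU42 replicate 2 and GAL42 replicates 3, 9 and 10, were lowest for both groups of genes. Between the diets 0 of 30 tested members passed the threshold, although 29 of the 30 had a lower fitted value on GAL42. Mylk, Postn and, less so, Dcn and Tpm2 did not follow the others.

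Promoters are shown for Col4a1 and Col4a2, whose windows overlap and which were among the most tightly correlated members. They are also shown for Acta2 and Col1a2, which held a CArG box among the members with a promoter window at hand. The sequences are RefSeq windows of build GRCm38.p6, from 250 bases before to 50 bases after the annotated start, written 5′ to 3′ on the strand of the gene. Col4a1 and Col4a2 encode the paired chains of basement membrane collagen IV and are transcribed in opposite directions. Their windows on chromosome 8 share 78 bases, written in capitals, and their starts lie 21 bases apart. As annotated, each start lies downstream of the other, so the 5′ ends overlap.
Col4a1, chr8:11312777-11313076, minus strand: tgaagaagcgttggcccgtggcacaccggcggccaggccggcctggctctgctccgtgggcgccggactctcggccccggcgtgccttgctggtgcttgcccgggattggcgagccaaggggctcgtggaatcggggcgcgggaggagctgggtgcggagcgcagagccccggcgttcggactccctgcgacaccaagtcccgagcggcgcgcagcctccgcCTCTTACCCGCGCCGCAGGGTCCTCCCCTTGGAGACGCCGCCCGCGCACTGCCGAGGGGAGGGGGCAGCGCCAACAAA
Col4a2, chr8:11312555-11312854, plus strand: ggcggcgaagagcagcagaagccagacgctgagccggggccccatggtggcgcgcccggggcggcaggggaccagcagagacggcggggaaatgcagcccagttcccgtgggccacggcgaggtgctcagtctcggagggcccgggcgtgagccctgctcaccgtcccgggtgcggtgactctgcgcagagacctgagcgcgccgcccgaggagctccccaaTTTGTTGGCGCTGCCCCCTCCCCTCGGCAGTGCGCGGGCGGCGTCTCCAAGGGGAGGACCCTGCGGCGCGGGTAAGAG
In the next sequences the capitals mark the CArG box, a sequence of CC, a core rich in A and T, and GG that is known as the binding sequence of serum response factor, a regulator of muscle genes.
Acta2, chr19:34255324-34255623, minus strand: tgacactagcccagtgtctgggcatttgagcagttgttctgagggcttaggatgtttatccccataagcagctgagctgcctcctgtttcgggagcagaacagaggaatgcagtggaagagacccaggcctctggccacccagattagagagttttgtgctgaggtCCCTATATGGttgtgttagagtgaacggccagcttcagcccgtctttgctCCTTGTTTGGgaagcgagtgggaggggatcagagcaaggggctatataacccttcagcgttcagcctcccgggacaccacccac
Col1a2, chr6:4505368-4505667, plus strand: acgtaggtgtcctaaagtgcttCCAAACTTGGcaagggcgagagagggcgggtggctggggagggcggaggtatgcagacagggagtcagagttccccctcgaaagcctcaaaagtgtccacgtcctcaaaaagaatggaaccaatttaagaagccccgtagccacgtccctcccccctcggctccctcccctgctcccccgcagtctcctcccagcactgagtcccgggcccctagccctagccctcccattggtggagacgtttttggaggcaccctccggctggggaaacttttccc

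RefSeq promoter windows were at hand for 9 of 12 muscle genes and 14 of 20 matrix genes. They were missing for the muscle genes Myh11, Tagln and Actg2, and for the matrix genes Fn1, Col1a1, Dcn, Lum, Mgp and Pdgfrb. The counts below say nothing about those genes. With a core of A and T only, the CArG box occurred in 1.63% of 32851 promoters and in none of these members. With at most 1 G or C allowed in the core, a form chosen after the stricter form had matched no member, it occurred in 9.98% of all promoters, in 1 of the 9 muscle genes (Acta2) and in 1 of the 14 matrix genes (Col1a2). Acta2 held 2 such boxes, CCCTATATGG beginning 84 bases before the start and CCTTGTTTGG beginning 34 bases before it, and 0.82% of all promoters held at least 2. Col1a2 held CCAAACTTGG, beginning 228 bases before its start. The box reads alike on both strands, and matches could overlap other motifs. The motif CCAAT, searched on both strands, occurred in 37.4% of promoters, in 5 of the 9 muscle genes and in 5 of the 14 matrix genes. These matches describe the letters of the windows only.

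Levels compared between genes are medians per kilobase of transcript. Mylk, the myosin light chain kinase, stood highest at 37.7 CPM per kb. It was followed by the small proteoglycan Bgn (biglycan) at 21.8 CPM per kb and by the collagen-binding glycoprotein Sparc at 16.8 CPM per kb. Acta2, smooth muscle α-actin, had 10.2 CPM per kb, a level close to that of Col6a1 (9.88), Col3a1 (9.07) and Col4a1 (9.02). Lum (lumican) and Mgp (matrix Gla protein) were close to absent, with 46 and 28 counts over all 23 libraries, and did not pass the filter on low counts, which the other 30 members passed. Postn (periostin) passed it with a median of 10 counts per library, so its values carry a large counting error.

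**Figure D1:**
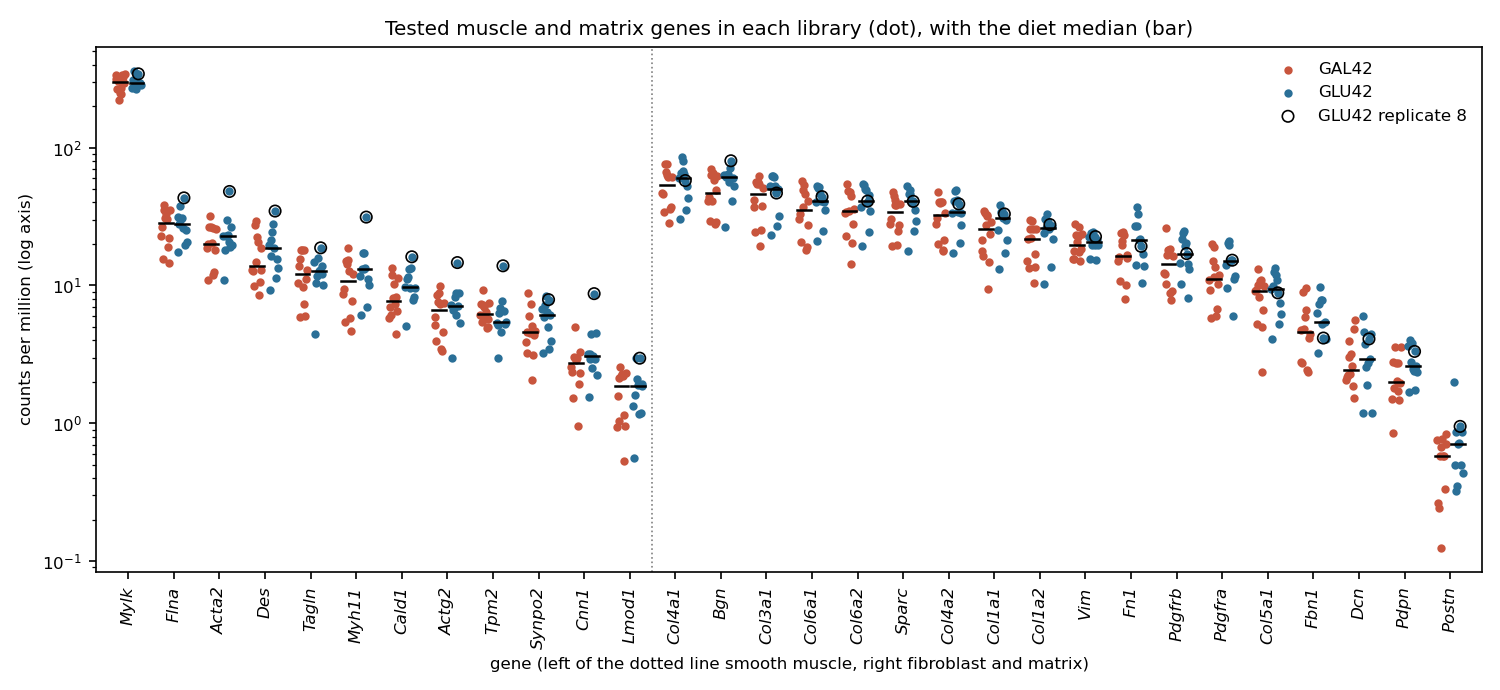
CPM of the 30 tested members in each library (1 dot per mouse, log axis), GAL42 in red and GLU42 in blue, with black bars at the diet medians and a ring around GLU42 replicate 8. The diets overlap in every gene, and the ringed library is the highest for 9 of the 12 muscle genes.

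Among the actins, Acta2 lay between 10.9 and 32.0 CPM on GAL42 (median 20.1) and between 10.9 and 48.0 CPM on GLU42 (median 22.7). The visceral γ-actin Actg2 lay between 3.34 and 9.89 CPM on GAL42 (median 6.62) and between 2.99 and 14.7 CPM on GLU42 (median 7.08). For both genes the diets overlapped over nearly the whole range, and the highest value was that of GLU42 replicate 8. Acta2, Actg2 and the skeletal actin Acta1 encode near-identical proteins. Reads aligned to more than 1 place, 7.48% to 10.4% of a library's counts, were assigned to no gene. Reads alike in several actins may have been lost in this way, so the separate levels of these actins are uncertain. The CPM of Acta2 was between 2.60 and 4.20 times that of Actg2 in the 23 libraries.

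Myh11, the smooth muscle myosin heavy chain, lay between 4.68 and 18.8 CPM on GAL42 (median 10.8) and between 6.10 and 31.3 CPM on GLU42 (median 13.1). Its highest library was 6.69 times its lowest. Mylk, in contrast, lay between 221 and 344 CPM on GAL42 (median 298) and between 264 and 360 CPM on GLU42 (median 295), a highest-to-lowest ratio of 1.63. It was the most even of the 30 tested members in this respect. Mylk also encodes a long form made by non-muscle cells, epithelium included, and counts per gene do not separate the forms.

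The actin-binding proteins covered a wide range of levels. Cnn1 (calponin), which restrains the myosin ATPase, lay between 0.96 and 4.98 CPM on GAL42 (median 2.72) and between 1.56 and 8.72 CPM on GLU42 (median 3.06). Cald1 (caldesmon), which binds actin and tropomyosin, lay between 4.41 and 13.4 CPM on GAL42 (median 7.68) and between 5.10 and 16.1 CPM on GLU42 (median 9.75). GLU42 replicate 8 again held the highest value of both, and otherwise the diets covered much the same range. Tagln (transgelin), Lmod1 (leiomodin, which nucleates actin filaments) and Tpm2 (β-tropomyosin) had highest-to-lowest ratios of 4.24, 5.58 and 4.65.

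Des (desmin), the intermediate filament of muscle, lay between 8.56 and 29.3 CPM on GAL42 (median 13.9) and between 9.33 and 34.6 CPM on GLU42 (median 18.8). Synpo2, an actin-bundling protein of muscle, and Flna (filamin A), which crosslinks actin at the membrane, had highest-to-lowest ratios of 4.31 and 2.98. For Synpo2, 10 of 12 GAL42 libraries lay below the GLU42 median, as did 8 of 12 for Des and 6 of 12 for Flna.

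Fibrillar collagens form the tensile fibres of connective tissue. Col1a1 lay between 9.45 and 34.6 CPM on GAL42 (median 25.5) and between 13.2 and 38.04 CPM on GLU42 (median 30.8). Col1a2, the other chain of collagen I, lay between 10.5 and 29.7 CPM on GAL42 (median 21.8) and between 10.3 and 33.2 CPM on GLU42 (median 26.3). Col3a1, which forms the finer fibres of the mucosa, lay between 19.5 and 61.9 CPM on GAL42 (median 46.1) and between 23.3 and 62.6 CPM on GLU42 (median 50.5). Each of these collagens had its low values in the same libraries, GAL42 replicate 9 or GLU42 replicate 2 being the lowest. Col5a1, which sets fibre width, had a highest-to-lowest ratio of 5.68.

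Col4a1, of the basement membrane, lay between 28.5 and 76.0 CPM on GAL42 (median 53.8) and between 30.1 and 85.7 CPM on GLU42 (median 59.7). Its partner Col4a2 had medians of 32.3 and 34.3 CPM. The beaded-filament collagen VI chains Col6a1 and Col6a2 had highest-to-lowest ratios of 3.18 and 3.85. The ratio of Col4a1 to Col4a2 CPM stayed between 1.48 and 2.02 over the 23 libraries, and that of Col6a1 to Col6a2 between 0.90 and 1.26, while each gene alone varied about as much as the other collagens.

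Of the glycoproteins, Fn1 (fibronectin), to which cells adhere, lay between 7.92 and 24.4 CPM on GAL42 (median 16.4) and between 10.5 and 37.1 CPM on GLU42 (median 21.3). Postn, a matricellular protein, lay between 0.12 and 0.83 CPM on GAL42 (median 0.58) and between 0.32 and 2.01 CPM on GLU42 (median 0.70). The highest Postn value came from GLU42 replicate 1, with 36 counts against at most 16 in the others. Fbn1, the fibrillin of microfibrils, had medians of 4.595 and 5.39 CPM, and Sparc had medians of 34.3 and 40.7 CPM.

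Of the leucine-rich proteoglycans, Bgn lay between 27.8 and 69.5 CPM on GAL42 (median 46.6) and between 26.7 and 80.3 CPM on GLU42 (median 61.4). Dcn (decorin), which binds collagen fibrils, lay between 1.54 and 5.59 CPM on GAL42 (median 2.42) and between 1.18 and 5.96 CPM on GLU42 (median 2.94). Bgn was low in the same 4 libraries as the collagens, whereas Dcn was lowest in GLU42 replicates 11 and 2, both at 1.18 CPM, and highest in GLU42 replicate 1. Lum was at 0 in 5 GAL42 and 3 GLU42 libraries, and Mgp at 0 in 5 and 7.

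Pdgfra, the platelet-derived growth factor receptor of fibroblasts, lay between 5.83 and 19.9 CPM on GAL42 (median 11.2) and between 6.01 and 21.0 CPM on GLU42 (median 14.9). Pdgfrb, the related receptor that pericytes also carry, had medians of 14.3 and 17.0 CPM. Pdpn (podoplanin), a surface protein of fibroblasts and of lymphatic endothelium, lay between 0.85 and 3.56 CPM on GAL42 (median 1.99) and between 1.68 and 4.04 CPM on GLU42 (median 2.61). Vim (vimentin), the intermediate filament of mesenchymal and immune cells, had medians of 19.5 and 20.5 CPM and the smallest highest-to-lowest ratio of the matrix genes, 1.88.

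The standard deviation of log2 CPM between libraries of a diet had a median of 0.52 over the 30 tested members, against 0.24 over all 13405 tested genes. Each member was set beside the 500 tested genes nearest to it in mean level, since genes of low count vary more. The standard deviation was at least 2 times the median of those genes in 18 of 30 members (5 of 12 muscle and 13 of 18 matrix genes). It stood at or above their 95th percentile in 19 of 30. Col3a1 had 3.26 times and Col6a2 3.19 times the standard deviation of genes of like level. At the other end stood Postn at 1.04 times and Mylk at 1.12 times, so these genes varied about as much as other genes of their level.

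Pairs of members were compared by Pearson r of log2 CPM over the 23 libraries. The median r was 0.77 over the 66 pairs within muscle, 0.85 over the 153 pairs within matrix and 0.73 over the 216 pairs of a muscle with a matrix gene. Over all pairs of tested genes the median was -0.003, and 0.5% of pairs reached an r of 0.7. Among the members, 65.2% of muscle pairs, 71.2% of matrix pairs and 56.0% of mixed pairs did. These pairs share libraries and genes and are not independent, so these figures are descriptive.

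**Figure D2:**
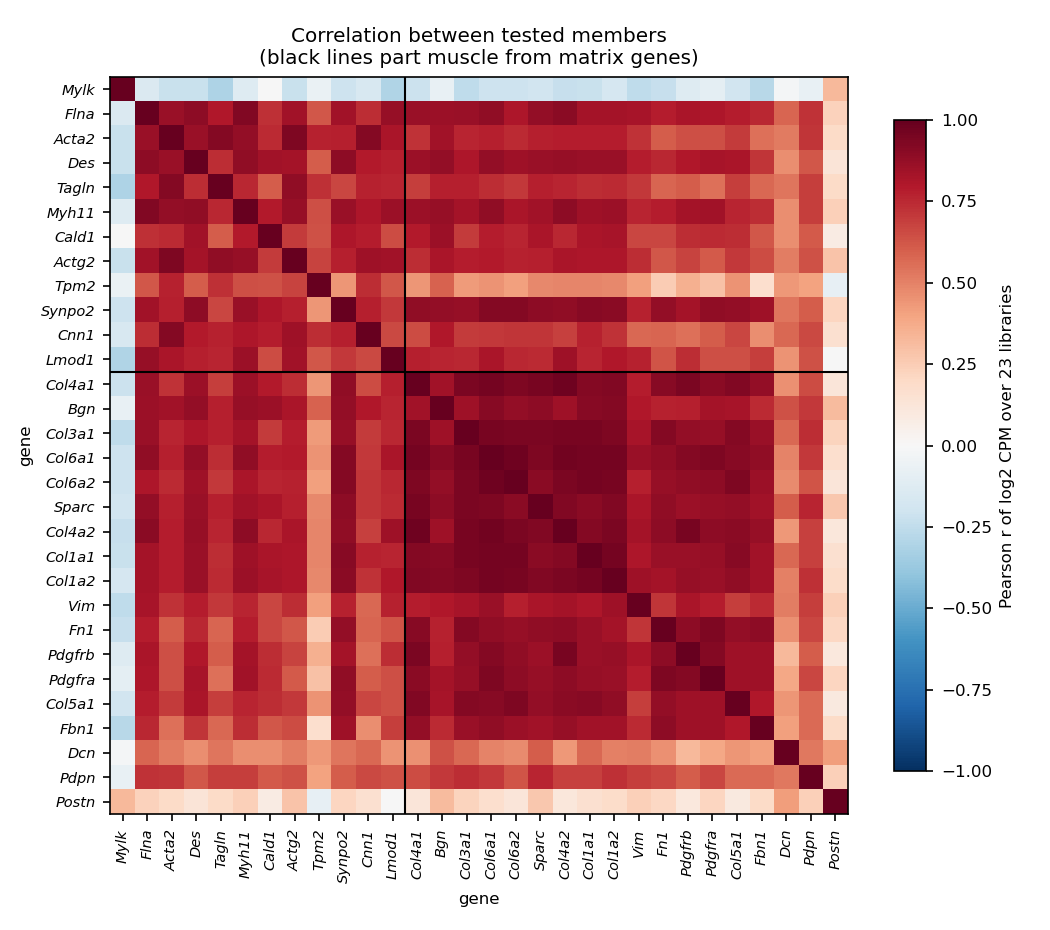
Pearson r of log2 CPM over 23 libraries for every pair of the 30 tested members, blue negative and red positive, with black lines between muscle and matrix genes and genes ordered by mean CPM within each. Most collagens lie in a dark block that also holds Bgn and Sparc, with Col5a1 apart from it in this order. Mylk and Postn appear as pale rows with median r of -0.20 and 0.19.

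The 12 gene pairs tested by permutation (100000 resamples, two-sided) each had a positive r and passed the threshold of 0.05 after Benjamini-Hochberg adjustment over the 12, by Pearson r and by Spearman rho. The pairs were picked with earlier results of these data known, so this count is no independent evidence. The 12 pairs each had an r of at least 0.5, as did 3.96% of all pairs of tested genes. Col6a1 with Col6a2 had r = 0.97 and rho = 0.96, Col4a1 with Col4a2 had r = 0.97 and rho = 0.96, and Col1a1 with Col1a2 had r = 0.96 and rho = 0.94. Each of these had a permutation p of 1e-05, the smallest that 100000 resamples can give, and an adjusted p of 1.333e-05. Within muscle, Acta2 with Tagln had r = 0.92, Acta2 with Myh11 had r = 0.88, Actg2 with Des had r = 0.83 and Myh11 with Cnn1 had r = 0.81. Muscle genes also moved with matrix genes, with r = 0.85 and rho = 0.88 for Myh11 with Col1a1 and r = 0.81 and rho = 0.74 for Des with Col3a1.

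The loosest of the tested pairs were Cnn1 with Pdgfra (r = 0.60, rho = 0.65, adjusted permutation p = 0.002138) and Actg2 with Dcn (r = 0.51, rho = 0.42, adjusted permutation p = 0.01216). Actg2 with Dcn rested on few libraries. Its r was 0.31 without the 2 libraries farthest from the median of Actg2, GAL42 replicate 10 and GLU42 replicate 2, and its adjusted permutation p was 0.0576 without GLU42 replicate 2 alone. Leaving out the 2 farthest libraries left the r of the other 11 pairs between 0.57 (Cnn1 with Pdgfra) and 0.97 (Col6a1 with Col6a2). Within diets, Cnn1 with Pdgfra had r = 0.80 over 12 GAL42 libraries and r = 0.30 over 11 GLU42 libraries, a difference that was not tested.

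The level of each group of genes in a library was summarised as the average of log2 CPM over the members tested. The muscle mean lay between 2.73 and 3.91 on GAL42 (median 3.52) and between 2.63 and 4.44 on GLU42 (median 3.59). The matrix mean lay between 3.00 and 4.36 on GAL42 (median 3.86) and between 3.17 and 4.40 on GLU42 (median 4.17). The diets overlapped in both, and the 4 lowest libraries of one were the 4 lowest of the other, 3 of them on GAL42. At the upper end 2 of the highest 4 were shared.

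The muscle and matrix means correlated with r = 0.88 and rho = 0.79 over the 23 libraries, and with r = 0.83 without the 2 libraries farthest from the median muscle mean. Within diets r was 0.97 on GAL42 (n = 12) and 0.76 on GLU42 (n = 11). Without GLU42 replicate 8, r was 0.90 on GLU42 and 0.94 over the remaining 22 libraries. Without GAL42 replicate 12, whose sex-linked counts went against its label, r was 0.88.

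**Figure D3:**
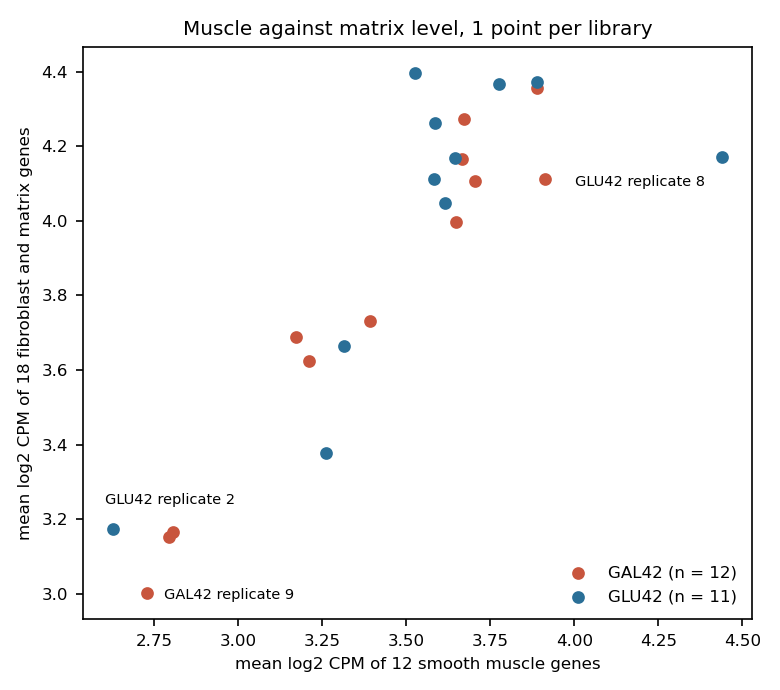
Mean log2 CPM of the 18 tested matrix genes (vertical) against that of the 12 muscle genes (horizontal), 1 point per library, GAL42 in red and GLU42 in blue. Libraries of both diets lie along 1 band from the 4 lowest at the lower left upward, and GLU42 replicate 8 lies to the right of it.

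GLU42 replicate 8 was the only library whose muscle mean exceeded its matrix mean, by 0.27 on the log2 scale. In the other 22 it lay below by 0.11 to 0.87. That sign depended on Mylk being in the list. Without Mylk the muscle mean of GLU42 replicate 8 was 4.08, below its matrix mean of 4.17. It held the highest value of 9 of 12 muscle genes and of 1 of 18 tested matrix genes, Bgn. Its muscle genes lay a median of 0.97 (log2) above the median of the other libraries, from 0.22 for Mylk to 1.57 for Cnn1. Its matrix genes lay a median of 0.16 above, with 4 of 18 below.

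Muscle genes outside the members were compared in that library too. Myl9, the regulatory light chain of smooth muscle myosin, had 17.3 CPM there against at most 11.8 CPM elsewhere, and the potassium channel subunit Kcnmb1 had 1.72 CPM against at most 1.28 CPM. Smoothelin (Smtn) had 20.9 CPM against at most 19.5 CPM. Of 2 sparse muscle genes, Pln was highest there with 4 counts. Myocd, with 3 counts (0.18 CPM against at most 0.59 CPM elsewhere), ranked 11 from the highest. Acta1, in contrast, had 32.1 CPM there, within the range of the others (4.12 to 80.9 CPM). Ckm, also on the skeletal muscle list, was highest there, at 0.65 CPM (11 counts) against at most 0.52 CPM. The 4 markers of interstitial cells of Cajal, the pacemaker cells between the muscle layers, summed to 9.43 CPM against 4.75 to 10.03 CPM in the others, rank 6 from the highest. The 7 glial markers summed to 3.44 CPM, rank 2 from the highest (0.87 to 3.51 CPM in the others, median 1.65). Among them Gfap was highest in that library, with 4 counts, and S100b had 0 counts. The 5 pericyte markers summed to 27.8 CPM, the highest of all libraries by a small margin, and the 10 enterocyte markers to 53366 CPM, the lowest. The part of these values in the muscle result was not tested.

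Among the matrix genes, GLU42 replicate 1 stood apart in a few only. It held the highest Postn (2.01 CPM), Dcn (5.96 CPM) and Sparc (52.5 CPM), and also the highest counts of the sparse Lum (13) and Mgp (7). Col1a1, at 25.2 CPM, ranked 14 of 23 there, and Col3a1, at 52.4 CPM, ranked 9. The adipocyte markers Adipoq, Plin1, Cfd, Fabp4, Retn and Lep were all highest in that library, with Fabp4 at 20.01 CPM against at most 8.28 CPM and Adipoq at 6.52 CPM against at most 1.002 CPM. In the other libraries Adipoq, Plin1, Retn and Lep had medians under 0.1 CPM. In GLU42 replicate 1 the glial markers summed to 3.51 CPM and those of interstitial cells of Cajal to 10.03 CPM. Both sums were the highest of all libraries by a small margin. The pericyte markers summed to 17.4 CPM, rank 13 from the highest, and the enterocyte markers to 55913 CPM, rank 22. The part of these markers in the Postn and Dcn values was not tested.

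Mylk did not move with its fellow contractile genes. Its median r with the other 11 muscle genes was -0.20, with a range from -0.31 to -0.01. With 10 enterocyte genes its r lay between -0.21 (Sis) and 0.24 (Lct), so it did not follow these either. Postn had a median r of 0.19 with the other members. Dcn had a median r of 0.50 with the members other than Mylk and Postn. Tpm2 moved with the other muscle genes (median r 0.64 without Mylk) more closely than with the matrix genes (median r 0.43), a difference that was not tested.

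Pericyte, endothelial and macrophage markers varied alongside. The mean log2 CPM of 4 tested pericyte markers had r = 0.86 with the muscle mean and r = 0.94 with the matrix mean. For 8 endothelial markers these were 0.83 and 0.90, for 5 lymphatic endothelial markers 0.83 and 0.84, and for 7 macrophage markers 0.84 and 0.77. Enterocyte markers had r = -0.34 and -0.16, and T cell markers -0.19 and -0.21. B and plasma cell markers had r = 0.29 and 0.10, enteric neuron markers 0.13 and 0.20, and markers of interstitial cells of Cajal 0.62 and 0.64. The points share libraries and CPM is a share of the library total, so these values are descriptive. Counts in genes had r = 0.00 with the muscle mean and 0.28 with the matrix mean. The TMM scaling factor had r = 0.47 and 0.29, and was highest in GLU42 replicate 8, at 1.09. The share of reads outside genes had r = -0.08 and -0.03 over all libraries, and -0.53 and -0.61 on GLU42. The part of these measures in the muscle and matrix levels was not tested. Without TMM scaling the correlation of the muscle and matrix means was 0.89.

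**Figure D4:**
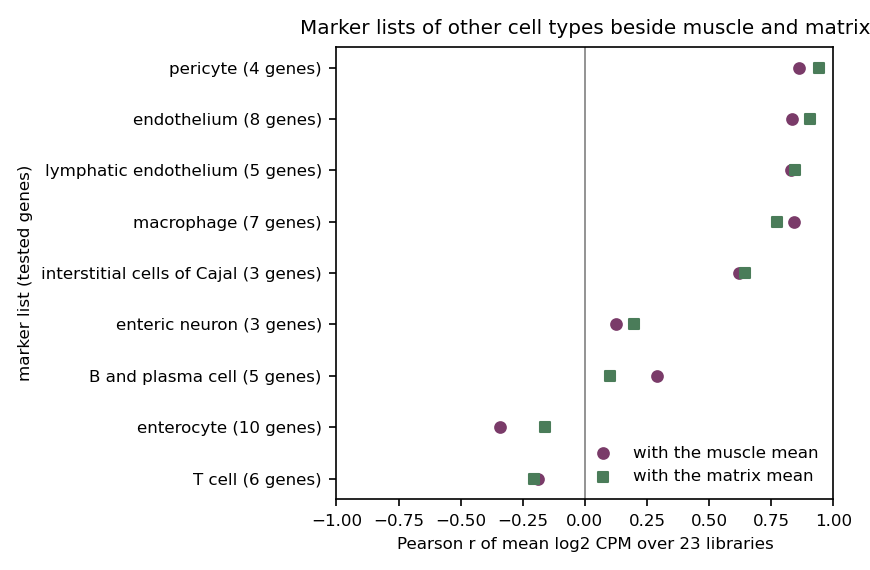
Pearson r over 23 libraries between the mean log2 CPM of each marker list and that of the muscle genes (circles) or matrix genes (squares), with the number of tested markers in brackets. Pericyte, endothelial, lymphatic and macrophage lists lie between 0.77 and 0.94, and enterocyte and T cell lists below 0.

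The summed levels of these lists overlapped between the diets. Endothelial markers summed to 82.2 to 180 CPM on GAL42 (median 130) and to 76.8 to 194 CPM on GLU42 (median 146). Pericyte markers summed to 6.96 to 26.5 CPM on GAL42 (median 16.4) and to 10.1 to 27.8 CPM on GLU42 (median 17.7). Markers of enteric glia, cells that lie largely in and beside the muscle layers, were scarce on both diets: 3 of 7 glial markers (S100b, Gfap and Kcna1) had medians under 0.1 CPM, and the glial list summed to at most 2.72 CPM on GAL42 and 3.51 CPM on GLU42.

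Outside the members, the genes whose pattern over the 23 libraries, with diet means removed, was most like the muscle mean were Myl9 (r = 0.96), Tmem176a (0.92), Csrp1 (0.91), Igfbp3 (0.90), Apol7c (0.90), Mmp10 (0.89), Notch4 (0.89), Plvap (0.89), Fstl1 (0.89) and Rgs5 (0.89). Those most like the matrix mean were Sparcl1 (r = 0.96), Mmp2 (0.96), Mmp10 (0.96), Npnt (0.96), Adamdec1 (0.95), Lamc1 (0.95), Nid1 (0.95), Igfbp3 (0.94), Col18a1 (0.94) and C1s1 (0.94). Igfbp3 and Mmp10 stood in both rankings. Myl9 and Csrp1 are muscle genes, Lamc1, Nid1 and Col18a1 encode basement membrane proteins, and Plvap and Rgs5 mark endothelium and pericytes.

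Whether these transcripts differ with dietary galactose was asked with edgeR's quasi-likelihood test over all 13405 tested genes, as log2 differences, GAL42 minus GLU42. It called 0 of 30 tested members and 0% of all tested genes at an adjusted p under 0.05. At an unadjusted p under 0.05 it had 0 members, against 14.4% of all tested genes. DESeq2, limma-voom, and limma-voom that also weights samples by quality each called 0 members. Over all tested genes these tools called 0.642%, 0% and 1.25%, so few or no calls among 30 genes match those shares.

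The 30 fitted differences leaned one way: 29 lay below 0, against 50.5% of all tested genes. Over the 12 muscle genes the median was -0.20, with 11 below 0, and over the 18 tested matrix genes it was -0.21, with 18 below 0. The median over all tested genes was -0.002. The members move together between libraries, so these are not 30 independent values. The lean was not particular to them. Below 0 lay 4 of 4 tested pericyte, 7 of 8 endothelial, 4 of 5 lymphatic endothelial and 5 of 7 macrophage markers. So did 3 of 3 tested markers of interstitial cells of Cajal and 3 of 3 of enteric neurons. The 1 tested glial marker, Cryab, had -0.70 (edgeR p = 0.0490, adjusted p = 0.345). For mesothelial markers 0 of 1 lay below 0, and for skeletal muscle markers 0 of 2. Of enterocyte markers 4 of 10 lay below 0, of T cell markers 1 of 6, and of B and plasma cell markers 0 of 5.

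**Figure D5:**
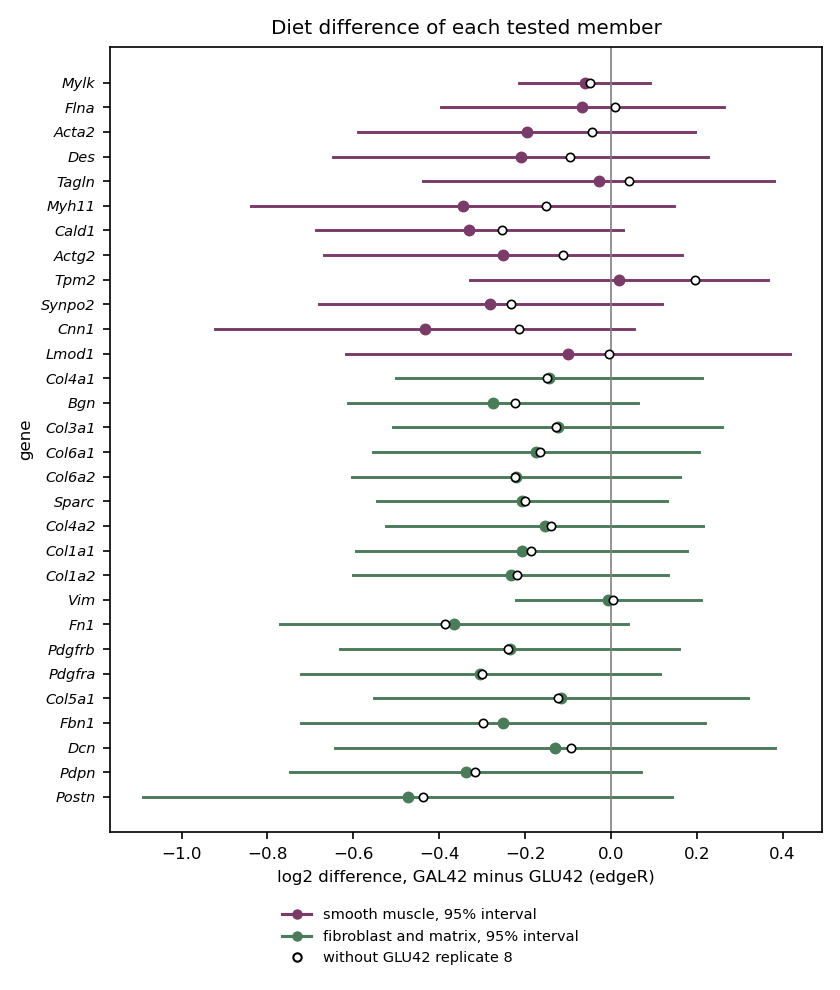
Log2 difference GAL42 minus GLU42 of each tested member (filled points, edgeR) with its 95% interval, muscle genes in purple and matrix genes in green, and the fitted value without GLU42 replicate 8 (open points). Every interval includes 0, and without that library most muscle values lie nearer to 0.

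The muscle genes of smallest p were Cald1, Cnn1 and Synpo2. Cald1 had a difference of -0.33 ± 0.17 (SE, edgeR p = 0.0688, adjusted p = 0.387). Cnn1 had -0.43 ± 0.24 (edgeR p = 0.0792, adjusted p = 0.404), and 10 of 12 GAL42 libraries lay below the GLU42 median. Synpo2 had -0.28 ± 0.19 (edgeR p = 0.161, adjusted p = 0.522) and Myh11 -0.35 ± 0.24 (edgeR p = 0.161). The 95% interval was -0.59 to 0.20 for Acta2, -0.65 to 0.23 for Des and -0.21 to 0.09 for Mylk. Each of these intervals includes 0, and that of Mylk is the narrowest of the 3.

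The muscle values leaned on GLU42 replicate 8. Without it the median of the 12 genes was -0.07 with 9 below 0, and the difference of Acta2 was -0.04, of Cnn1 -0.21 and of Myh11 -0.15. The median of the matrix genes without it was -0.21. Without GAL42 replicate 12 the medians were -0.23 for muscle and -0.23 for matrix.

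The matrix genes of smallest p were Fn1, Pdpn and Bgn. Fn1 had a difference of -0.36 ± 0.20 (SE, edgeR p = 0.0758, adjusted p = 0.398), Pdpn -0.34 ± 0.20 (edgeR p = 0.101, adjusted p = 0.439) and Bgn -0.27 ± 0.16 (edgeR p = 0.106, adjusted p = 0.447). The receptor Pdgfra had -0.30 ± 0.20. The collagens had differences from -0.23 ± 0.18 for Col1a2 to -0.12 ± 0.21 for Col5a1. Vim had -0.01 ± 0.11, with an interval from -0.22 to 0.21. Postn had -0.47 ± 0.30, and -0.21 without GLU42 replicate 1, and Dcn had -0.13 ± 0.25, and -0.004 without that library.

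The matrix values were also set beside a length measure of the libraries. The length slope of a library was the slope, on log2 transcript length, of each gene's log2 CPM less its mean over the 23 libraries. It is thus relative to the other libraries, and had medians of -0.04 on GAL42 and 0.05 on GLU42. Its r with the matrix mean was 0.33 (0.31 on GAL42 and 0.12 on GLU42). With the muscle mean it was 0.07 (0.16 on GAL42 and -0.34 on GLU42). The matrix genes are long, with a median transcript of 5386 bases against 3228 for all tested genes. With the length slope in the fit their median difference was -0.09, with 16 of 18 below 0, and that of the muscle genes was -0.23. Over all tested genes, those with an unadjusted edgeR p under 0.05 fell from 1924 to 886 with this covariate. The slope itself leaned with diet, so its part cannot be told apart from that of diet. With the muscle mean in the fit the matrix median was -0.06 with 12 of 18 below 0. With the matrix mean in the fit the muscle median was -0.04 with 7 of 12 below 0. The 2 means move together (r = 0.88), so each takes up diet difference of the other, and these 2 fits cannot part them from diet.

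Ratios between members, which do not depend on library scaling, were compared between the diets by two-sided permutation tests with 100000 resamples, and 0 of 6 passed the threshold. For Col1a1 over Col1a2 the log2 ratio was 0.21 ± 0.18 (SD, n = 12) on GAL42 and 0.21 ± 0.14 (SD, n = 11) on GLU42. For Acta2 over Myh11 it was 0.98 ± 0.31 on GAL42 and 0.83 ± 0.31 on GLU42, and for Fn1 over Col1a1 it was -0.50 ± 0.18 and -0.39 ± 0.37. The adjusted permutation p of the 6 ratios lay between 0.836 and 0.982.

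Further genes of these programmes were counted in the same fit. Of 40 further contractile and muscle regulatory genes, 32 were tested and 0 called, and 30 lay below 0 with a median of -0.16. At an unadjusted edgeR p under 0.05, 6 were lower on GAL42, against 5.72% of all tested genes. The mean log2 CPM of these 32 genes had r = 0.92 with the muscle mean, so they are not independent values. Their differences without GLU42 replicate 8, on which the muscle members leaned, are not given here. Sorbs2, an adaptor of the actin cytoskeleton, lay between 1.05 and 1.91 CPM on GAL42 and between 1.41 and 3.56 CPM on GLU42 (log2 difference -0.56 ± 0.16, edgeR adjusted p = 0.139). Vcl (vinculin), of cell adhesions, had a difference of -0.15 ± 0.06 and the integrin Itga8 -0.44 ± 0.19.

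Of 60 further matrix and fibroblast genes, 49 were tested and 0 called, 45 lay below 0 with a median of -0.21, and at an unadjusted p under 0.05 there were 4 lower and 1 higher on GAL42, against 5.72% and 8.63% of all tested genes. The basement membrane protein Nid2 (nidogen) lay between 7.95 and 17.3 CPM on GAL42 and between 13.6 and 19.8 CPM on GLU42 (log2 difference -0.32 ± 0.10, edgeR adjusted p = 0.175). Prelp, a leucine-rich proteoglycan, had -0.57 ± 0.20 and the elastic fibre protein Fbln5 -0.40 ± 0.15. Prelp was highest of all libraries in GLU42 replicate 8, at 12.9 CPM.

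Of 21 genes of transforming growth factor, platelet-derived growth factor and hedgehog signalling, which act on fibroblasts and muscle, 20 were tested and 0 called, and 14 lay below 0 with a median of -0.06. Ccn1, a matricellular protein, had a difference of -0.47 ± 0.15 (edgeR adjusted p = 0.185), the receptor Tgfbr1 -0.21 ± 0.08 and the inhibitory Smad7 -0.21 ± 0.10.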

How the data were processed

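RNA-seq libraries of 23 mice were analysed. For each mouse the authors deposited a file of unnormalized read counts covering 55416 genes. A further 5 lines without a gene held 13.5% of counts and were left out. Per the submitters' processing notes STAR, HTSeq and build GRCm39 were used, while their versions, strand setting and filters were not given in the sources used here. Diets were compared with edgeR 4.0.16 (R 4.3.3): filterByExpr, TMM scaling, the quasi-likelihood F test with a single term for diet over the 23 libraries, and Benjamini-Hochberg adjustment over 13405 genes with a threshold of 0.05. The test was also run on simulated counts, with an outcome not reported here. Each simulated gene was drawn independently, so that run does not bear on genes that move together, as the members do. CPM use TMM-scaled totals, and log2 CPM for correlations and means have a prior count of 2. Transcript lengths (longest transcript) came from an annotation of another build, matched by identifier. Alternatives were other scalings and filters, DESeq2 1.42.0, limma-voom (limma 3.58.1), covariates and leaving out each library. The members, lists, gene pairs and ratios were chosen with earlier results of these data known. Values by library were given for a set of members fixed by name, for the 3 muscle and 3 matrix members of smallest p and for the 3 genes of smallest p of each further list, and genes alike in pattern were the 10 with highest r. Of 14 gene pairs listed, 12 were tested, since Lum did not pass the filter. Replicates are numbered by accession order, which pairs no mice. The labels name separate mice, so p-values measure the spread between mice.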

Additional observations from a re-analysis of the deposited data

How the results depend on the processing

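In every alternative, 0 members passed the threshold. Of 984 member differences under alternatives, 954 kept their direction and 30 changed sign, in 5 members (Tagln, Flna, Tpm2, Vim and Col5a1). The main differences of these members lay between -0.12 (Col5a1) and 0.02 (Tpm2). Tpm2 was -0.0027 with no scaling beyond the library total and -0.14 with the length slope as covariate. With that covariate Col5a1 was 0.0298 and Vim 0.0282, and Vim was 0.0239 with the pancreatic marker Cela1 and the adipocyte marker Fabp4 as covariates. Leaving out each library gave -0.119 to 0.0425 for Tagln, -0.129 to 0.00908 for Flna, -0.0557 to 0.196 for Tpm2 and -0.0617 to 0.0284 for Vim. It gave -0.028 to 0.0309 for the log2 ratio Col1a1 over Col1a2 and -0.00947 to 0.0323 for Col4a1 over Col4a2. Leaving out each library gave list medians from -0.28 to -0.07 for muscle and from -0.29 to -0.15 for matrix. With the matrix mean as covariate the muscle median was -0.04, and the matrix median was -0.09 with the length slope and -0.06 with the muscle mean. These covariates leaned with diet or moved with the members, so these medians cannot part them from diet. With limma-voom and sample quality weights the matrix median was -0.32. Of the 12 gene pairs, 11 passed without GLU42 replicate 2, where Actg2 with Dcn had r = 0.41, and leaving out each library gave 0.41 to 0.60 for that pair. The correlation of the muscle and matrix means ranged from 0.86 to 0.94, and its value on GLU42 without replicate 8 was added after seeing the data. Over all genes DESeq2 called 86 and limma-voom with quality weights 167, and edgeR without GAL42 replicate 7 called 219. No paired analysis was possible because the replicate numbers only follow the order of deposit. Depth limits Postn, Lum and Mgp most.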
